A study of Mus musculus with 2 samples.

Results

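*Ntrk2*-high endothelial cells (ECs) were lung ECs in which at least 3 transcripts of *Ntrk2* were captured, and they numbered 186 among 2037 cells kept after quality filtering. Of these, 179 came from the hypoxia library and 7 from the normoxia library. Members were chosen by their own transcript counts: at least 1 UMI (unique molecular identifier, the tag that marks 1 captured molecule) of at least 2 of the 4 EC genes *Cdh5*, *Pecam1*, *Cldn5* and *Egfl7*, and at least 3 UMIs of *Ntrk2*. Cells were left out when they carried at least 2 of the 4 aerocyte genes *Ednrb*, *Fibin*, *Chst1* and *Apln*, at least 2 of the 4 arterial genes *Gja5*, *Bmx*, *Sulf1* and *Fbln2*, or at least 2 UMIs of *Vwf*. The levels of *Ntrk2* and of these genes in the members are therefore a description of the rule and support nothing.

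Single lung cells of C57/B6 mice aged 2 to 4 months were captured by the 10x Chromium 3′ method, with 1 library from normoxia (21% oxygen) and 1 from mice kept at 10% oxygen for 3 weeks. Blood was flushed from the lungs, and cells bound by CD45 or CD326 beads (leukocytes and epithelial cells) were depleted before capture. No transgene or drug was used in either library, and the labels do not say how many animals gave cells to each. By the study's account the hypoxia cells came from several wild-type animals, which the 1 library does not tell apart. The deposited normoxia matrix held 2223 cells with 7630683 UMIs and the hypoxia matrix 809 cells with 2685345 UMIs. One sample stood for each condition, so hypoxia and library cannot be told apart, no test was made, and every interval given here is at 95% and covers counting error only. The libraries had 1 cell barcode in common, which belonged to no member.

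*Ntrk2* encodes TrkB, the receptor tyrosine kinase for brain-derived neurotrophic factor (BDNF) and neurotrophin-4. Ligand binding activates the kinase, which signals through SHC and FRS adaptors, phospholipase C gamma and GRB2. Truncated forms without the kinase domain are common outside neurons, and a 3′ count per gene does not separate the forms. The lung capillary bed is made of general capillary ECs, which carry *Gpihbp1*, *Kit* and *Aplnr* and can renew the bed, and of thin aerocytes, which carry *Car4*, *Ednrb* and *Apln* and line the gas exchange surface.

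*Ntrk2* lies on the plus strand of mouse chromosome 13 at 58806569 to 59133970 in GRCm38, and its principal transcript has 18 exons. The 250 bases before its RefSeq start (GRCm38.p6, chr13:58806319-58806568, plus strand) are shown because *Ntrk2* defined the cells and the libraries differed in oxygen. Capitals mark the letters GCGTG, or CACGC where the match is on the other strand, which contain the core that hypoxia-inducible factors recognise.

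*Ntrk2*: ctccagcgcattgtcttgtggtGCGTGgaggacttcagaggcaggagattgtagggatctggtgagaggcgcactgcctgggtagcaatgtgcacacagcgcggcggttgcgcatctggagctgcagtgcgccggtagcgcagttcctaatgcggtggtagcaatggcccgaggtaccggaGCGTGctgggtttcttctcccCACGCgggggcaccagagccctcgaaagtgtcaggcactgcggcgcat

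The window held 3 matches to ACGTG or GCGTG on either strand, and they began 228, 69 and 48 bases before the start. Such a match was present in 38.6% of 32851 promoter windows of this length and in 58.0% of the 4739 windows of genes with enough UMIs to be compared below. Windows of the companion markers *Mal* and *Cxcl12* held no match to these letters. A match describes the letters and is not a binding site.

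*Ntrk2*-high ECs made up 30.0% of the ECs in the hypoxia library (179 of 597, interval 26.3 to 33.8%) and 0.675% of those in the normoxia library (7 of 1037, interval 0.272 to 1.39%). Members in hypoxia had 3 to 22 *Ntrk2* UMIs with a median of 5, and members in normoxia had 3 or 4. The rule kept the arterial, aerocyte and *Vwf*-carrying ECs out, which removed 47 hypoxia ECs with at least 3 *Ntrk2* UMIs, 32 of them by *Vwf*, 12 by aerocyte genes and 5 by arterial genes. These counts overlap, as some cells met more than 1 exclusion. One normoxia EC was removed in the same way, by *Vwf*, and 1 hypoxia cell with at least 3 *Ntrk2* UMIs was not an EC by the rule. *Ntrk2* was thus not limited to the members within the hypoxia library.

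The class was cut from a count per cell and is a range of ECs, not a type. Among hypoxia ECs that passed the exclusions, 39 members stood just inside it with 3 *Ntrk2* UMIs and 61 cells just outside with 2. As UMIs per 1000000 UMIs of the same cells (CPM), the level of *Ntrk2* was 834 just inside and 845 just outside, which is the fixed count over depth and no finding. *Cdk19* had 813 CPM just inside and 832 just outside, and *Cxcl12* 3314 and 3201 CPM. The cells just inside were deeper, with a median of 3066 UMIs against 1817. Other genes lay further apart across the line, and no test was made. *Wfdc1* had 221 CPM just inside and 333 just outside, *Car4* 99.8 and 215 CPM, *Kit* 613 and 430 CPM, and *Gpihbp1* 1376 and 1123 CPM.

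In the hypoxia library, depth moved with membership. Hypoxia members had a median of 4555 UMIs per cell, ECs with 1 or 2 *Ntrk2* UMIs 1643.5, and ECs without an *Ntrk2* UMI 1380. The 146 of these last 199 cells that passed the same exclusions, called matched ECs below, had a median of 1137 UMIs. In normoxia the 7 members had a median of 3414 UMIs, ECs with 1 or 2 *Ntrk2* UMIs 3418, ECs without one 3542 and the 693 matched ECs among these 2948. Members there were about as deep as the other ECs and deeper than the matched ones. The part of depth in the differences between members and other hypoxia cells was not tested. For some of the genes that lead the main comparisons, ratios among cells of at least 2000 UMIs are also given. For matched ECs this limit was chosen after seeing the data.

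The libraries were therefore compared on all ECs that passed the exclusions, whatever their *Ntrk2*. At least 1 *Ntrk2* UMI was found in 68.6% of 465 hypoxia cells (median 2168 UMIs) and in 9.17% of 763 normoxia cells (median 3102 UMIs). After every cell was thinned to 2000 UMIs, which left out 222 hypoxia and 267 normoxia cells that were shallower, the share was 79.4% (193 of 243, interval 73.8 to 84.3%) in hypoxia and 7.66% (38 of 496, interval 5.48 to 10.4%) in normoxia. The higher share in hypoxia after thinning goes with the loss of shallow cells, since thinning itself can only remove UMIs. The summed level was 935 CPM (interval 885 to 986) in hypoxia and 42.3 CPM (interval 34.5 to 51.3) in normoxia.

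Cells outside the EC gate were looked at for comparison, and the level of free RNA in the droplets was not measured. In the hypoxia library, an *Ntrk2* UMI was found in 7.69% of 26 cells with at least 3 fibroblast markers outside the EC gate (median 1520 UMIs) and in 20.8% of 24 cells with epithelial markers (median 1075.5 UMIs), below the 68.6% in ECs. In normoxia, 0 of 189 fibroblast-marker cells had one at a median of 4666 UMIs, which allows up to 1.59% of cells with a captured UMI and says nothing of cells that express the gene below capture. *Ntrk2* also differed among the EC classes that the rule left out. It stood at 717 CPM in the 78 hypoxia ECs with at least 2 *Vwf* UMIs and at 226 CPM in the 51 aerocyte-gene ECs, and the same classes in normoxia had 20.7 and 3.77 CPM.

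**Figure D1:**
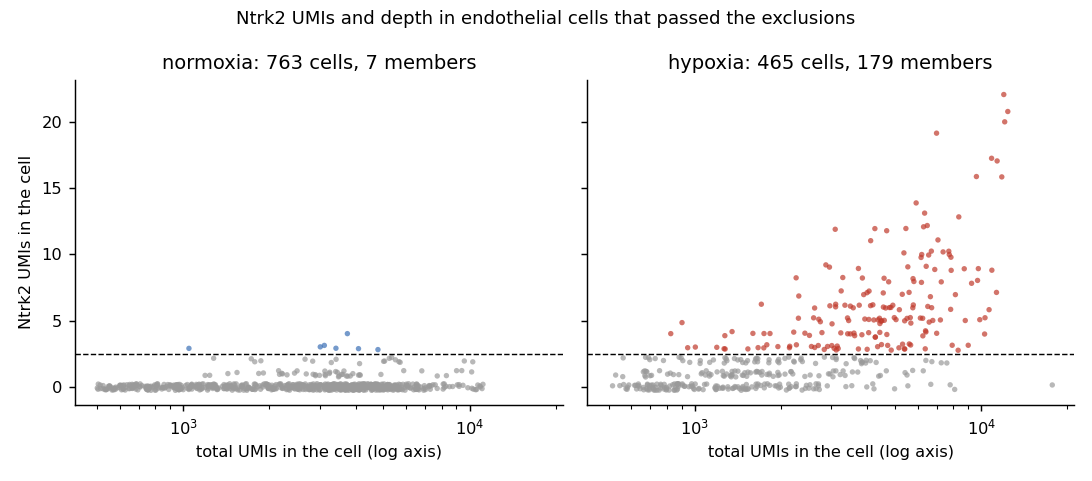
*Ntrk2* UMIs (vertical axis, points jittered) against total UMIs (horizontal log axis) for each EC that passed the exclusions, with normoxia on the left and hypoxia on the right. Coloured points above the dashed line are the 7 and 179 members, grey points the remaining cells; in hypoxia the cells with most *Ntrk2* UMIs are also among the deepest.

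The members carried the genes of general capillary ECs. At least 3 of the 5 markers *Gpihbp1*, *Plvap*, *Cd93*, *Aplnr* and *Kit* were detected in 145 of 179 hypoxia members (81.0%) and in 29 of 146 matched ECs (19.9%), which were shallower, and in 6 of the 7 normoxia members. In matched normoxia ECs the share was 72.0% of 693. At least 4 of the 5 were detected in 71.4% of the 7 normoxia members and 55.8% of the matched ECs. With 7 cells, these shares do not settle whether the capillary genes set members apart in that library. After thinning to 2000 UMIs, *Gpihbp1*, *Kit* and *Aplnr* were found in 76.4, 62.1 and 19.9% of 161 hypoxia members. In 31 matched hypoxia ECs the shares were 51.6, 38.7 and 6.45%. In 51 hypoxia ECs with 1 or 2 *Ntrk2* UMIs they were 84.3, 58.8 and 33.3%. *Gpihbp1* and *Aplnr* were thus found in a larger share of these last cells than of members, and *Kit* in a smaller one. All 4 EC genes were detected in 168 hypoxia members (93.9%) and in 51 of the 146 shallower matched ECs (34.9%). In matched normoxia ECs that share was 69.1%. At least 2 of 5 aerocyte markers, *Car4* added to the 4 of the rule, were found in 6 members, and at least 2 of the 4 lymphatic markers *Prox1*, *Mmrn1*, *Lyve1* and *Flt4* in 8. The EC and aerocyte counts are set in part by the rule and are given as a description.

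The 4 companion markers were not part of the rule, but they had been picked as markers from these same cells, so their levels are a description too. *Cxcl12*, the chemokine that acts on CXCR4, was detected in 178 of 179 hypoxia members. *Cdk19*, a cyclin-dependent kinase of the Mediator complex, was detected in 161, *Wfdc1*, a secreted protein with a whey acidic protein domain, in 124, and *Mal*, a membrane proteolipid of lipid rafts, in 51. All 4 were found together in 40 members, 3 of them in 87, 2 in 41 and 1 in 11, and no member lacked all of them. *Mal* was the least evenly spread, as 10 cells held 44.8% of its UMIs in members.

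In the hypoxia library, the summed levels of the companions were highest in members, lower in ECs with 1 or 2 *Ntrk2* UMIs and lowest in matched ECs, but they did not follow the *Ntrk2* count at each step. *Cdk19* had 1015 CPM in members (interval 950 to 1083), 799 CPM in ECs with 1 or 2 *Ntrk2* UMIs and 602 CPM in matched ECs (interval 507 to 708). *Cxcl12* had 3731, 2934 and 1755 CPM in the same order. *Wfdc1* had 346, 299 and 180 CPM. *Mal* had 129, 67.1 and 20.9 CPM, the last from 5 UMIs. Among the members themselves, at 3, 4 to 5, 6 to 9 and at least 10 *Ntrk2* UMIs, *Cdk19* had 813, 1075, 887 and 1257 CPM. *Cxcl12* had 3314, 3436, 3621 and 4516 CPM, *Wfdc1* 221, 313, 396 and 398 CPM, and *Mal* 64.1, 131, 166 and 119 CPM. The median depth went from 3066 to 6841 UMIs over the same classes. After thinning to 2000 UMIs, *Cxcl12* was detected in 157 of 161 members and 50 of 51 ECs with 1 or 2 *Ntrk2* UMIs, *Wfdc1* in 48.4% and 47.1%, and *Cdk19* in 76.4% and 58.8%.

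*Cdk19* was high in hypoxia also where no *Ntrk2* UMI was seen. Matched ECs without an *Ntrk2* UMI had 602 CPM of *Cdk19* in hypoxia and 61.0 CPM in normoxia, a ratio of 9.86. *Cxcl12* in matched ECs had 1755 CPM in hypoxia and 829 CPM in normoxia, and *Wfdc1* 180 and 95.7 CPM. *Mal* was at 5 UMIs in the 146 hypoxia cells and at 1 UMI in the 693 normoxia cells. After thinning to 2000 UMIs, *Cdk19* was found in 61.3% of 31 matched hypoxia ECs (interval 42.2 to 78.2%) and in 8.01% of 437 matched normoxia ECs. The difference between the libraries in *Cdk19* was therefore not confined to the *Ntrk2*-high cells.

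**Figure D2:**
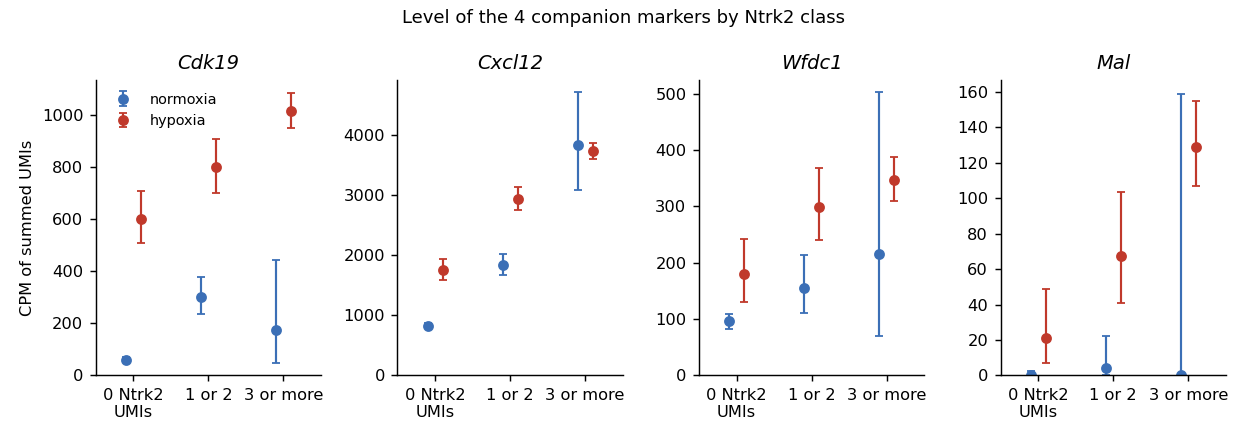
Level in CPM of summed UMIs (vertical axis from 0, with exact Poisson 95% intervals) of *Cdk19*, *Cxcl12*, *Wfdc1* and *Mal* in ECs that passed the exclusions, by the number of *Ntrk2* UMIs in the cell. In hypoxia (red) each marker is highest in cells with 3 or more; in normoxia (blue) the class of 3 or more holds 7 cells, with 0 *Mal* UMIs.

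The 7 normoxia members can be given one by one. Their totals were 1047, 3010, 3110, 3414, 3743, 4093 and 4786 UMIs, and their *Cxcl12* UMIs in that order were 3, 10, 13, 18, 26, 3 and 16. Every one carried *Cxcl12* and *Sema3c*, a semaphorin of capillary ECs, and none carried *Mal*. *Cdk19* was seen in 3 of them with 4 UMIs in all, and *Wfdc1* in 4 with 5 UMIs. *Gpihbp1*, which anchors lipoprotein lipase on capillaries, and *Kit*, the receptor of stem cell factor, were each present in 6. *Cxcl12* was 4.62 times its level in matched normoxia ECs (3836 against 829 CPM), on 89 UMIs in 7 cells. *Mal* was at 0, which allows up to 129 CPM, and *Cdk19* at 172 CPM (interval 47.0 to 441). The level of *Cdk19* in matched normoxia ECs, given above, lies within that interval, so these cells do not settle whether it was higher in members.

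Hypoxia members were next compared with the 199 hypoxia ECs without an *Ntrk2* UMI, over the 4637 genes with at least 50 UMIs in both groups together, the genes of the rule and mitochondrial genes left out. Of these, 208 genes (4.49%) were at least 2-fold higher in members and 133 (2.87%) at least 2-fold lower, by the ratio of CPM. Against the 146 matched ECs, 4069 genes could be compared, of which 339 (8.33%) were at least 2-fold higher and 88 (2.16%) lower. The median ratio of all genes was 1.07 (log2 0.10) in the former comparison and 1.14 (log2 0.19) in the latter. These shares come from cells and describe these libraries, and the members' counts below are read against them.

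Among the 15 genes that stood highest were receptors, secreted proteins and adhesion genes. *Aplnr*, the apelin receptor, had 142 UMIs in 78 members and 15 UMIs in 14 comparison cells, 158 against 32.3 CPM (ratio 4.89, interval 2.87 to 8.96). ECs with 1 or 2 *Ntrk2* UMIs had 211 CPM of *Aplnr* (interval 163 to 271), above the members, and within members it had 235, 163, 142 and 123 CPM from 3 to at least 10 *Ntrk2* UMIs. *Sema3g*, a secreted semaphorin, had 401 against 108 CPM (ratio 3.72, interval 2.76 to 5.10). *Itga1*, the integrin subunit that binds collagen IV, had 1588 against 601 CPM (ratio 2.64), and *Pcdh17*, a protocadherin, 494 against 166 CPM (ratio 2.98), with 530 CPM in ECs with 1 or 2 *Ntrk2* UMIs. The other 13 of the 15 genes had higher levels in members than in those cells. *Ifngr1*, the ligand-binding chain of the interferon gamma receptor, was 3.26 times higher (702 against 216 CPM). *Arhgap26*, a GTPase-activating protein, had the highest ratio of the 15 at 13.2, but on 2 UMIs in the comparison cells against 51 in members (interval 3.46 to 112).

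A kinase, a transporter and a transcription factor were also among the 15. *Sgk1*, a kinase induced by glucocorticoids, had 674 CPM in members and 211 in comparison cells (ratio 3.19), and *Slc6a6*, the taurine transporter, had 971 and 323 CPM. *Rgcc*, a regulator of the cell cycle found in ECs, had 200 and 56.0 CPM (ratio 3.57). *Sox11*, a transcription factor of the SOX family, had 201 and 51.7 CPM (ratio 3.89), in 71 members and 20 comparison cells. *Sparcl1*, a secreted matrix protein, had 1790 and 672 CPM (ratio 2.66). *Cxcl12*, *Mal*, *Cdk19* and *H2-Ab1*, a chain of an MHC class II molecule, were the other genes among the 15 that stood highest.

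Against matched ECs all 15 ratios stayed above 1, and those of *Arhgap26* (13.6, on 1 comparison UMI) and *Mal* were larger while the other 13 were smaller. The ratio of *Aplnr* became 3.15 (interval 1.75 to 6.24), that of *Sema3g* 2.34, *Itga1* 2.39 and *Ifngr1* 2.67. *Cdk19* went from 2.71 to 1.69 (interval 1.41 to 2.03), *Wfdc1* from 2.72 to 1.93, *Sparcl1* from 2.66 to 1.64 and *Cxcl12* from 2.89 to 2.13. *Mal* went from 3.99 to 6.18 (interval 2.57 to 19.4), on 5 comparison UMIs. With matched ECs and members both limited to cells of at least 2000 UMIs, which left 161 members and 31 matched ECs, *Aplnr* was at 4.52, *Ifngr1* at 3.37, *Cxcl12* at 2.09, *Cdk19* at 1.91 (interval 1.48 to 2.52), *Mal* at 3.87 (interval 1.47 to 14.5) and *Arhgap26* at 6.93. The interval of *Aplnr* was wide there (1.73 to 16.8), and *Rgcc* was at 1.71 with an interval of 0.992 to 3.19. The 31 matched ECs include 1 cell of 17712 UMIs, 25.2% of them from markers of other cell types. It was left out of none of the ratios given for matched ECs of that depth. This limit does not make the groups equal in depth.

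**Figure D3:**
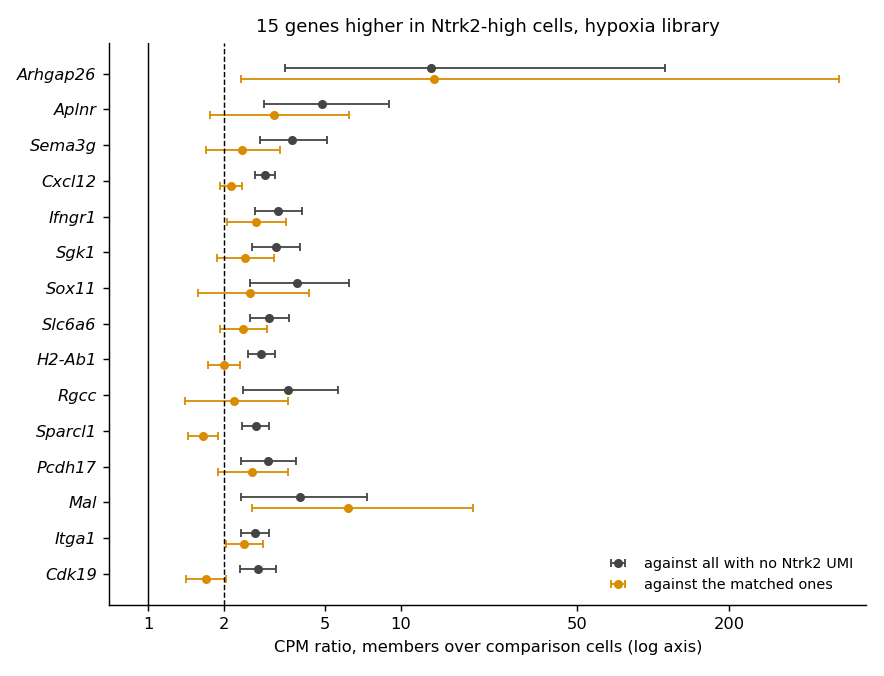
Ratio of CPM in hypoxia members over hypoxia ECs without an *Ntrk2* UMI (dark points) and over the matched ones among them (orange points), on a log axis with exact conditional binomial 95% intervals, for the 15 genes chosen by the bound nearest to 1. All points lie to the right of the solid line at 1, and *Sparcl1*, *Cdk19* and *H2-Ab1* fall below the dashed line at 2 in the matched comparison.

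Set beside normoxia, the 15 genes fell into different patterns. *Cdk19* in hypoxia members was 16.6 times its level in matched normoxia ECs, *Sparcl1* 7.61 times, *Rgcc* 4.92 times, *Cxcl12* 4.50 times, *Slc6a6* 4.13 times, *H2-Ab1* 3.82 times and *Ifngr1* 2.73 times. By contrast, *Aplnr* had 158 CPM in hypoxia members and 159 CPM in matched normoxia ECs, *Sema3g* 401 and 361 CPM and *Itga1* 1588 and 1688 CPM. *Pcdh17* had 494 and 596 CPM. For these 4 genes it was the matched hypoxia ECs that stood low, with 50.1, 171, 664 and 192 CPM. *Sox11* was lower in hypoxia members (201 CPM) than in matched normoxia ECs (556 CPM), and lowest in matched hypoxia ECs (79.4 CPM).

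**Figure D4:**
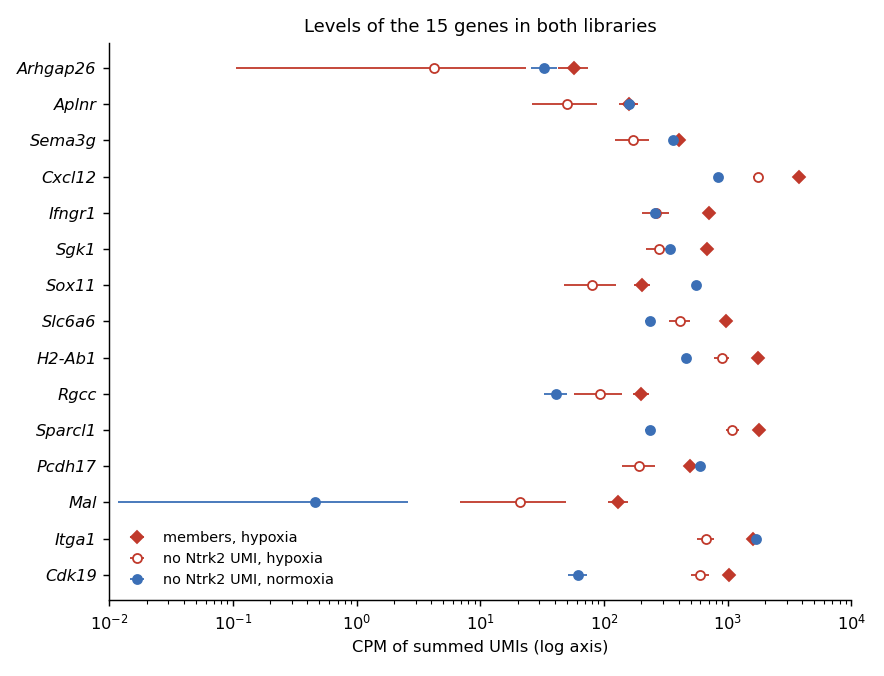
Level in CPM (log axis, exact Poisson 95% intervals) of the same 15 genes in hypoxia members (filled red diamonds) and in matched ECs without an *Ntrk2* UMI of the hypoxia (open red circles) and normoxia (blue circles) libraries. For *Aplnr*, *Sema3g* and *Itga1* the members and the normoxia cells lie close together, while for *Cdk19*, *Cxcl12*, *Sparcl1* and *Mal* the members lie to the right of both other groups.

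General capillary genes were followed as a list. Of 15 general capillary genes with enough UMIs, 7 were at least 2-fold higher in members and 0 lower, with a median ratio of 1.99 against 1.07 over all genes. The 7 were *Cd93*, *Aplnr*, *Kit*, *Sema3c*, *Tek*, *Cadm1* and *Lpl*. *Sema3c* had 3403 against 1442 CPM, *Cd93*, a C-type lectin of ECs, 1611 against 619 CPM, and *Kit* 531 against 228 CPM. *Gpihbp1* was at a ratio of 1.78 (1133 against 636 CPM), below the 2-fold line. Against matched ECs, 3 of 15 were past it and the median ratio was 1.76, beside 1.498 for the 16 general endothelial markers, 1.51 for the 11 junction genes and 1.79 for 3 venous genes. With at least 2000 UMIs in both groups as well, *Sema3c* was at 2.78, *Cd93* at 2.25, *Gpihbp1* at 1.75 and *Kit* at 1.40.

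Of 11 aerocyte genes with enough UMIs, 9 were at least 2-fold lower in members, with a median ratio of 0.308. *Car4*, the carbonic anhydrase of aerocytes, had 225 CPM in members and 1241 in comparison cells, and *Emp2*, a tetraspan membrane protein, 219 and 1739 CPM. The rule itself removed cells with aerocyte genes from the members alone, so the choice of cells bears on this difference. Against matched ECs, 3 of 10 were lower, with a median ratio of 0.959, and *Car4* was at 0.928 (interval 0.690 to 1.26), while *Emp2* was at 0.215 and *Igfbp7* at 0.246.

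Arterial, venous and lymphatic genes were touched by the rule, which removed cells with arterial genes or *Vwf*. Of 9 arterial genes, 2 were higher, *Gja4*, a gap junction protein (571 against 231 CPM), and *Sox17*, a transcription factor (494 against 198 CPM), and 2 were lower, *Mgp* and *Ltbp4*. Against matched ECs, 0 of 8 were higher and 2 lower, with a median ratio of 1.04. Of 5 venous genes, 3 were lower, *Prss23*, *Vcam1* and *Lrg1*. *Prss23* had 7 UMIs in members and 108 in comparison cells, and in matched ECs it had 3. Against matched ECs, 1 of 3 venous genes was higher and 0 were lower, with a median ratio of 1.79. It was *Vegfc*, a ligand of VEGF receptor 3, with 233 against 83.6 CPM (ratio 2.78, interval 1.76 to 4.65, on 20 comparison UMIs). *Ackr1* and *Selp*, markers of venules, had 0 UMIs in members. The lymphatic genes *Prox1* and *Reln* were also at 0, and *Lyve1* was at 82.3 against 280 CPM.

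All 7 MHC class II genes, which load and present peptides to CD4+ T cells, were at least 2-fold higher in hypoxia members, with a median ratio of 2.26. *Cd74*, the invariant chain, had 6517 CPM in members (interval 6352 to 6687), 5505 in ECs with 1 or 2 *Ntrk2* UMIs and 2938 in comparison cells. *Ciita*, the transactivator of these genes, had 200 against 79.7 CPM (ratio 2.51). Against matched ECs, *Ciita* alone of the 7 was past 2-fold, the median ratio was 1.72 and *Cd74* was at 1.49. With at least 2000 UMIs in both groups as well, *Cd74* was at 1.34 and *H2-Ab1* at 1.75. In normoxia the 7 members had 1121 CPM of *Cd74*, beside 1179 CPM in matched ECs. The summed level of the list was 12252 CPM in hypoxia members and 7745 in matched hypoxia ECs, but 2629 and 2575 CPM in the same groups of normoxia. Of the 12 leukocyte markers, 6 had 0 UMIs in hypoxia members, *Ptprc* among them, while *Lyz2* had 16 UMIs in 14 members, and their part in this result was not tested. Of 13 MHC class I genes, 2 were higher, *H2-Q6* and *H2-Q7*, with a median ratio of 1.29.

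Of 10 basement membrane and matrix genes, 2 were at least 2-fold higher in members and 1 lower, with a median ratio of 1.68. *Col4a1*, a chain of collagen IV, had 2904 CPM in members, 2397 in ECs with 1 or 2 *Ntrk2* UMIs and 1194 in comparison cells (ratio 2.43, interval 2.22 to 2.67). Its partner chain *Col4a2* was at a ratio of 1.94 (1457 against 752 CPM) and *Sparc*, which binds collagen, at 1.73. *Col4a1* and *Sparcl1* were past 2-fold upwards and *Timp3*, an inhibitor of matrix proteases, was past it downwards (388 against 948 CPM). Against matched ECs neither was past it, with *Col4a1* at 1.99 and *Sparcl1* at 1.64, while 1 of 9 genes was, *Mmrn2*, a matrix glycoprotein of ECs, at 2.44, and the median ratio was 1.33 beside 1.14 over all genes. With at least 2000 UMIs in both groups as well, *Col4a1* was at 1.89 and *Sparcl1* at 1.76. Their summed level was 8742 CPM in hypoxia members, 5987 in matched hypoxia ECs and 3009 in matched normoxia ECs. Within the members *Col4a1* had 2430, 2678, 2900 and 3496 CPM from 3 to at least 10 *Ntrk2* UMIs, while the median depth went from 3066 to 6841 UMIs, and cells with 2 *Ntrk2* UMIs had 2675 CPM, above the class with 3.

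Other genes of the receptor's own pathway were few and sparsely captured. Of 23 neurotrophin genes, 4 had enough UMIs outside the rule, and none was past 2-fold, with a median ratio of 1.05. *Plcg1*, phospholipase C gamma, had 108 against 129 CPM, *Grb2*, an adaptor, 106 against 94.8 CPM and *Kidins220*, a TrkB substrate, 65.7 against 66.8 CPM. Their intervals were wide, from 0.772 to 1.63 for the ratio of *Grb2*, which was 1.81 against matched ECs. Among them, the ligand genes *Bdnf*, *Ntf3* and *Ntf5* and the receptors *Ntrk3* and *Ngfr* had 0 UMIs in hypoxia members. A count of 0 in their 898661 UMIs allows a level of up to 3.34 CPM. *Shc2*, *Shc3* and *Sorcs2* were at 0 as well. In the Mediator kinase module, to which CDK19 belongs, 3 genes had enough UMIs and *Cdk19* was past 2-fold. Its partners *Med13l* and *Med13* were at 1.46 and 1.13, and against matched ECs *Med13l* was at 2.56, on 10 comparison UMIs.

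Genes that respond to low oxygen were close to the background when members were compared with other ECs of the hypoxia library. Of 18 hypoxia and glycolysis genes, 1 was past 2-fold, *Mxi1*, a MAX-binding repressor, at 2.43 (73.4 against 30.2 CPM), and the median ratio was 1.01. *Gapdh* and *Ldha*, enzymes of glycolysis, had ratios of 0.94 and 0.96. *Vegfa* had 367 against 231 CPM. *Epas1*, which encodes HIF2α, was at 0.98 (2066 against 2104 CPM, interval 0.91 to 1.06), but at 1.11 (interval 1.01 to 1.22) among cells of at least 2000 UMIs and at 1.25 (interval 1.08 to 1.46) against matched ECs of that depth. Both comparison groups include 1 cell of 17712 UMIs, 25.2% of them from markers of other cell types. The *Epas1* ratios at that depth without this cell were not computed. *Hif1a* was at 0.89 (79.0 against 88.4 CPM). Against matched ECs, 2 of 18 hypoxia and glycolysis genes were higher, *Mxi1* and *Bnip3*, a mitophagy receptor (ratio 2.26), and 0 were lower. In the separate list of HIF subunits and regulators, 0 of 6 were past 2-fold, and against matched ECs 1 of 6 was lower, *Cited2*, which binds CBP and p300, at 0.333. *Hk2*, *Car9*, *Egln3* and *Adm* had 0 UMIs in members. Of 15 sprouting genes, *Rgcc* was higher and *Kdr* and *Plaur* were lower, while against matched ECs 1 of 13 was higher, *Rgcc*, 0 were lower and *Plaur* was at 1.23. *Kdr*, the main VEGF receptor and richer in aerocytes, had 310 CPM in members, 1007 in comparison cells and 338 in matched ECs. Set beside matched normoxia ECs, *Ldha* was at 3.30 in hypoxia members and 2.55 in matched hypoxia ECs, and *Gapdh* at 1.99 and 2.13. In the same order *Bnip3l* was at 1.07 and 1.08, *Vegfa* at 0.651 and 0.600, and *Epas1* at 0.645 and 0.663. These differences between the libraries were not tested.

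Other lists had few genes past 2-fold. In the BMP and TGF-beta pathway, 2 of 18 were, *Bmp6*, a BMP ligand (228 against 77.6 CPM), and *Ltbp1*, which holds latent TGF-beta (116 against 49.6 CPM), while *Bmpr2* was at 1.35 and *Eng* at 0.92. No nitric oxide and endothelin gene of 7 and no Kruppel-like factor of 8 passed it, and 1 junction gene of 11 did, *Gja4*. *Fos* was the 1 immediate-early gene of 13 past it (204 against 461 CPM) and *Hspb1*, a small heat shock protein, the 1 of 13 chaperones (653 against 1623 CPM), both lower in members. Of the *Fos* UMIs in comparison cells, 1 cell held 25.2% and 3 cells 51.9%, and 1 cell held 21.2% of those of *Hspb1*. Whether either call holds without those cells was not tested. Of 12 interferon-stimulated genes *Cxcl9* was lower, and of 9 growth arrest genes *Gadd45b* and *Phlda3* were. None of 6 cell cycle genes passed it, and 7 of the 23 on that list, *Ccnb1* and *Birc5* among them, had 0 UMIs in members. One lipid gene of 6, *Lpl*, was higher, and of 3 genes of the CXCL12 axis *Cxcl12* alone was. *Cxcr4*, its receptor, had 6 UMIs in all members. Against matched ECs some of these calls differed. *Hspb1* was at 1.04 and no chaperone was lower, while *Hspa1a*, an inducible chaperone, was higher at 2.22. *Dpp4*, a protease that cleaves CXCL12, was at 2.06 on 11 comparison UMIs, so 2 of 3 genes of the axis were past 2-fold. *Bmp6* was at 1.88 and *Ltbp1* at 2.77, no junction, lipid or growth arrest gene passed, and *Fosb* (0.375) and *Gbp2* (0.419) were lower beside *Fos* and *Cxcl9*. In matched ECs, however, 1 cell held 88 of the 126 *Gbp2* UMIs (69.8%) and 1 cell held 54 of the 106 *Fos* UMIs (50.9%). Ratios of these genes without such cells were not computed.

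**Figure D5:**
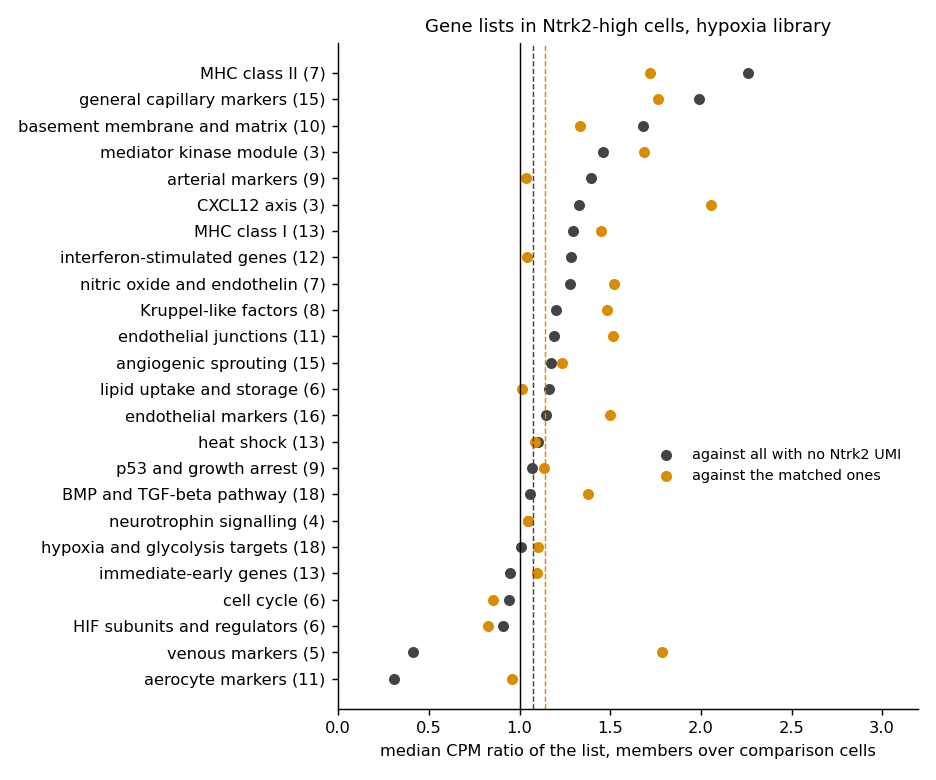
Median ratio of CPM (horizontal axis) in hypoxia members over hypoxia ECs without an *Ntrk2* UMI (dark) and over the matched ones (orange), for lists with at least 3 genes of enough UMIs; the number in brackets counts those genes in the former comparison. Dashed lines mark the medians of all genes (1.07 and 1.14); among the dark points MHC class II and general capillary genes lie furthest right, and aerocyte genes move from 0.308 to 0.959 with the matched cells.

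The genes that stood lowest in members belonged largely to other cell types carried by a few comparison cells. *Sftpc*, which encodes surfactant protein C of alveolar type 2 cells, had 141 UMIs in members (at most 3 in a cell) and 3553 in comparison cells, of which 3400 (95.7%) lay in 1 cell of 17712 UMIs. *Sftpa1*, *Sftpb*, *Sftpd*, *Lyz2*, *Cxcl15*, *Slc34a2* and *Wfdc2* followed it, with 88.1 to 96.6% of their comparison UMIs in 1 cell each. *Cxcl9*, an interferon-induced chemokine, had 186 UMIs in 1 comparison cell. *Ccl21a*, a chemokine of lymphatic ECs whose symbol is shared by more than 1 gene model, had 192 of 257 UMIs in 1 cell, and *Scgb1a1* of club cells 1466 of 1888. *AW112010* and *Igfbp7*, at 5306 CPM in hypoxia aerocyte-gene ECs, were spread over 60 and 72 comparison cells. *Ctsh*, a lysosomal protease, had 0 UMIs in members and 57 in comparison cells.

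Summed levels of other cell types' markers were lower in members, with a few comparison cells carrying much of the sums. Epithelial markers summed to 695 CPM in members and 14723 in comparison cells, with *Scgb1a1* most abundant in members and *Epcam* and *Lamp3* at 0. Leukocyte markers summed to 27.8 and 657 CPM, with *Lyz2* most abundant and *Ptprc* at 0. Fibroblast markers summed to 122 and 752 CPM, with *Mgp* most abundant and *Col1a2* and *Pdgfra* at 0. Mural markers summed to 50.1 and 386 CPM, with *Higd1b* most abundant and *Cspg4* at 0, and platelet and red cell markers to 77.9 and 267 CPM, with *Hbb-bs* most abundant. All 5 lists had no gene past 2-fold upwards, and of the 12 genes tested in them 11 were past 2-fold downwards. In no member, and in 4 comparison cells, did these lists hold over 5% of the UMIs. By the number of cells the order was the other way for epithelial markers alone of the 5 lists. At least 2 epithelial markers were detected in 64.8% of members and 57.8% of the shallower comparison cells, and at least 2 markers of any of the 5 lists in 67.6% and 62.8%. In the other lists members stayed lower, with leukocyte markers at 0.559 and 2.51% and fibroblast markers at 2.79 and 9.55%. Mural markers were at 3.91 and 6.53%, and platelet and red cell markers at 5.03 and 6.53%. After thinning to 2000 UMIs, *Sftpc* was at a ratio of 1.25, *Sftpa1* at 1.75 and *Lyz2* at 2.79. The 78 members and 109 comparison cells of these ratios were chosen from the thinned counts and are not the groups above. The part of these transcripts in the other ratios was not tested. Without those 4 cells, a comparison chosen after seeing the data, *Aplnr* was at 4.51, *Cxcl12* at 2.67 and *Cdk19* at 2.54.

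Members were not uniform in depth or in capillary genes. Over single members, the *Ntrk2* level ranged from 333 to 5543 CPM with a median of 1294, and *Cxcl12* had a median of 3132 CPM with quartiles of 1717 and 4579. *Aplnr* was detected in 78 members, *Sema3g* in 122, *Kit* in 138 and *Gpihbp1* in 160. *Cd74* was detected in every hypoxia member, at a median of 6165 CPM with quartiles of 4149 and 8116. Since 3 UMIs in a shallow cell are a high level by themselves, the *Ntrk2* CPM of single members fell with depth (Spearman coefficient -0.53 over 179 cells of 1 library, a description), and no relation to other genes was read from it.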

How the data were processed

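Per the file headers, the authors made the deposited UMI counts per gene and cell with Cell Ranger 6.1.2, and mm10 is the genome named in the submitters' notes. The study's text names an earlier release of the software in one place and a later one in another. The values are whole-number counts, not normalized. A cell was kept when 200 to 4000 genes were detected in it and no more than 5% of its UMIs were mitochondrial. No doublet caller was run, and the upper limit on genes was the one step against doublets. The members and the gene lists were chosen with earlier results of these data known.

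UMIs were summed over the cells of each group and given per 1000000 (CPM), with exact Poisson intervals at 95%. Ratios of CPM had exact conditional binomial intervals, and shares had exact Clopper-Pearson intervals. A count of 0 was given the level that 3 counts would have. Genes with at least 50 UMIs over both groups were compared, and a ratio of at least 2 or at most 0.5 was counted. The genes named were the 15 highest and the 15 lowest when ordered by whichever interval bound lay closer to 1, the members of 30 lists past 2-fold, and listed genes given for their role. Cells were thinned to 2000 UMIs with seed 1. Thinned detection shares kept the groups chosen before thinning, while thinned member shares, gene counts and ratios used groups chosen after it. The depth of single cells limits what could be detected, and the totals per group are given with the results. With 1 library per condition no test between conditions was possible. The ratio code was tested on simulated data. Alternatives were other limits on genes, mitochondrial UMIs and *Ntrk2* UMIs, other comparison cells, thinning, scaling by the median ratio, means over cells and other UMI minimums. Gene positions come from GENCODE vM21 (GRCm38) and promoter windows from RefSeq (GRCm38.p6), where 3 of the 5 markers matched. Python 3.11.15, numpy 2.4.6, scipy 1.17.1, pandas 2.3.3 and matplotlib 3.10.9 were used.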

Additional observations from a re-analysis of the deposited data

Results flagged for a closer look

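For 4 flagged genes the ratio of members to ECs without an *Ntrk2* UMI lay on opposite sides of 1 in the libraries, and the difference was not tested. *Klf4*, a Kruppel-like factor, was at 1.29 in hypoxia and 0.479 in normoxia. *Hsp90ab1*, a chaperone, was at 1.1 and 0.615. *Tubb5*, a tubulin, was at 1.26 and 0.340. *Ager*, a gene of alveolar type 1 cells, was at 0.136 and 2.77. The normoxia values rest on 7 cells with 17, 24, 3 and 6 UMIs of these genes. Other genes also lay on opposite sides of 1 in the libraries, *Sparcl1*, *H2-Ab1*, *Eng* and *Epas1* among them.

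*Ntrk2* was also present in ECs that quality filtering removed. In those above the mitochondrial limit its level was 508 CPM in hypoxia (75 cells, interval 391 to 649) and 33.3 CPM in normoxia (529 cells, interval 21.9 to 48.4). In those above the limit on genes it was 415 CPM in hypoxia (13 cells, interval 336 to 507) and 12.1 CPM in normoxia (30 cells, interval 4.86 to 24.9). Of the removed ECs, 6 in hypoxia and 2 in normoxia met the other conditions of the rule.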

How the results depend on the processing

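Each condition had 1 library, so differences between conditions are differences between 2 libraries, and the counts of genes move with depth and with the UMI minimum. No paired analysis was possible because there was 1 sample per condition and no test was made. Members were 40.2% of hypoxia ECs and 2.41% of normoxia ECs at a threshold of 2 *Ntrk2* UMIs, and 19.1% and 0% at 5. The hypoxia share was 22.3% after thinning and 37.9% without the exclusions. For the thinned values in this section, groups were chosen from the thinned counts, which left 78 members and 109 comparison cells in hypoxia. These 109 include cells that lost their *Ntrk2* UMIs to thinning, since before it 68 comparison cells had at least 2000 UMIs. Instead of 208 genes higher and 133 lower in members of 4637, there were 40 and 43 of 1388 after thinning, 559 and 350 of 7420 at a minimum of 20 UMIs, 1112 and 1127 of 11048 with no minimum, 339 and 88 of 4069 against matched ECs, and 63 and 28 without cells that had at least 2 genes of another type, a setting that left 58 of 179 members, 74 of 199 comparison cells and 1355 genes to compare. Against matched ECs with at least 2000 UMIs in both groups, an alternative chosen after seeing the data, 508 were higher and 103 lower of 3689. Of 36 named genes past 2-fold upwards, 18 stayed past it after thinning, 17 against matched ECs and 32 without cells of over 5% other-type UMIs, also chosen after seeing the data.

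Some ratios that were past 2-fold crossed 1, and the cause was not tested. After thinning these were *Sftpc* 1.25, *Sftpa1* 1.75, *Lyz2* 2.79, *Wfdc2* 2.79, *Cox4i2* 2.79, *Cxcl15* 1.40 and *Ndufa4l2* 1.40. Against matched ECs they were *Pmp22* 1.31, *Itga3* 1.43, *Plaur* 1.23 and *Hspb1* 1.04, and with at least 2000 UMIs as well *Kdr* 1.02, *Lpl* 0.973, *Car4* 1.44, *Pmp22* 1.11 and *Itga3* 1.15. Of named genes whose ratio lay near 1, *Ldha* (1.30), *Eng* (1.19) and *Kidins220* (1.05) crossed it against matched ECs. *Hif1a* (1.04) and *Epas1* (1.11) crossed it with at least 2000 UMIs, and *Epas1* (1.25) also with both. *Itga3* was at 1.11 without cells that had genes of another type, and *Cxcl15* at 1.11 without cells of over 5% other-type UMIs.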
